A study of Caenorhabditis elegans with 2 samples.

Results

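The 5000 regions of AMA-1 occupancy described here stood in the list of 1 replicate of L1 larvae and met nothing in the list of the other. They were chosen by the deposited signal of replicate 1 and by absence from replicate 2: of the 30000 replicate 1 regions on build ce11, 12889 shared no base with any of the 30000 replicate 2 regions (43.0%), and the 5000 of highest signal among those were taken. The study consists of chromatin immunoprecipitation with an antibody against AMA-1, the largest protein of RNA polymerase II, followed by sequencing. Its 2 biological replicates form 1 group, whole L1 larvae of Caenorhabditis elegans strain N2, the wild-type laboratory strain, of both sexes pooled and with no age recorded. No treatment, mutant or second stage was compared, so the only contrast is between the replicates. Whole animals were used, and fewer cells with polymerase at a site cannot be told apart from less polymerase per cell.

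RNA polymerase II transcribes protein-coding genes and many small non-coding genes. In chromatin immunoprecipitation its signal usually gathers at 5' ends, where transcription starts, and at 3' ends, where transcripts are cut, with a lower level along gene bodies. In newly hatched worms transcription depends strongly on feeding, since larvae that hatch without food arrest in the first stage with polymerase held near start sites of growth genes. The sources used here do not say whether the larvae had been fed.

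Both replicate lists were cut at 30000 regions, nearly all of 1 width (340 bp in 99.5% of replicate 1 regions and 350 bp in 99.8% of replicate 2 regions). The lowest signal was 3.11 in replicate 1 and 2.22 in replicate 2, so absence from the replicate 2 list means that no region at that place reached its first 30000. The signal is the peak caller's own value in each library and its scale is not given, so signals of the 2 libraries are set side by side and not divided. No source used here gives read numbers, so the depth is unknown, and the intervals beside shares are exact 95% binomial (Clopper-Pearson) intervals that cover counting error only. No test was made: the regions were selected on these 2 libraries, there is 1 library a replicate, and regions are not replicates.

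The sequences of 5 members are printed because they carry the kinds of place described further on: a repeat, an intergenic site among piRNA genes, 2 gene starts and a coding exon. Each is the plus strand of 300 bases centred on the summit, build ce11. Capitals mark matches, on either strand, to any of 7 letter strings that were searched. The string TATAAA is the TATA box, TTTTCAG is the core of the 3' splice site of worm introns, and AATAAA is the signal for polyadenylation of transcripts. The repeat string GAGAGA is known in flies as the site of GAGA factor, and CACGTG is the palindromic form of the E-box, bound by helix-loop-helix factors. The string TTAGGC is the unit of the telomere repeat of worms, and TTTCCCGC is one form of the site known for E2F factors in mammals. The strings of the telomere unit and of E2F were searched after these sequences had been seen. Overlapping matches run together, and a match is a description of letters, not a binding site.
Beside the 3' end of col-42, chrV:18639632-18639931: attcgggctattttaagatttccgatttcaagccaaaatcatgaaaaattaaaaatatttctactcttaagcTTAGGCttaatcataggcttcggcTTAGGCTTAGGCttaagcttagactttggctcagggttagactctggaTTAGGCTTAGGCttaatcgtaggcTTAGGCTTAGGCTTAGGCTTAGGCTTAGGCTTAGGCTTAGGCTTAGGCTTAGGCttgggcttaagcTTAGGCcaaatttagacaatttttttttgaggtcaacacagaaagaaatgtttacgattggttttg
Intergenic, chrIV:15570778-15571077: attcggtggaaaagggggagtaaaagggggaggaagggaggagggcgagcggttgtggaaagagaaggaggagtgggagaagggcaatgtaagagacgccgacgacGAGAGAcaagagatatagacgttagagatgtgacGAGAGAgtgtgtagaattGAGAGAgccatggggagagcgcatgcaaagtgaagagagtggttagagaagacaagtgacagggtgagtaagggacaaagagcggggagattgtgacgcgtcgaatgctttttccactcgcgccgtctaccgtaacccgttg
5' end of efl-1, chrV:16965687-16965986: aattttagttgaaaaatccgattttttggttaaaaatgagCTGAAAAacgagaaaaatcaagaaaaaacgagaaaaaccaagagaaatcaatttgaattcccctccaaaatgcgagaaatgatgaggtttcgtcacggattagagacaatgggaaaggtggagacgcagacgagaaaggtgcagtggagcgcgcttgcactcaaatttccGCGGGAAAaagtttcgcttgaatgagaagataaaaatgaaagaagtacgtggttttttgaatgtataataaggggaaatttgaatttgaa
5' end of acs-2, chrV:15566806-15567105: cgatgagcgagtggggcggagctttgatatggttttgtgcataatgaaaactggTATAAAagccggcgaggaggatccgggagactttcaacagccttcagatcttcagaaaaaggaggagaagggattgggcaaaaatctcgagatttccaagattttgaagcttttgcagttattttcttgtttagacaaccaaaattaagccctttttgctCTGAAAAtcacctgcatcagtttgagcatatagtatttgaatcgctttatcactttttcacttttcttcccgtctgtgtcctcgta
Coding exon of let-805, chrIII:2671875-2672174: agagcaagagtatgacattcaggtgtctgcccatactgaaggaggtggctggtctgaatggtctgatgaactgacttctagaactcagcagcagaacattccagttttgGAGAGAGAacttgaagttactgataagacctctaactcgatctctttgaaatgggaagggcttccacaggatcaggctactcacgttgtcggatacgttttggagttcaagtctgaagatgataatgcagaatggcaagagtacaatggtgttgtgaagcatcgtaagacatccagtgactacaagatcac

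The col-42 window held 15 copies of TTAGGC, and the intergenic window held 3 matches to GAGAGA. The efl-1 window had 1 match each to TTTTCAG and TTTCCCGC, and the acs-2 window 1 match each to TATAAA and TTTTCAG. The let-805 window had 2 overlapping matches to GAGAGA. Windows with 5 or more TTAGGC copies were rare, at 5 of the 5000 members (0.1%), 14 of 11096 shared regions (0.126%), 21 of 5000 in the mirror set of replicate 2 defined further on (0.42%) and 52 of the 30000 replicate 1 regions. Besides col-42, a member in an intron of the nuclear hormone receptor gene nhr-88 held 8 copies.

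The strongest member lay in mnk-1, which encodes a kinase of the MAP kinase-interacting family. Its signal was 135 in replicate 1, where it ranked 24, and 159 in the list made from both replicates pooled. Pooled values, here and below, are those of the highest pooled region that the member overlaps by 1 bp or more. The replicate 2 region nearest to the mnk-1 member stood 10 bp away with a signal of 39.2. This member thus bordered a strong replicate 2 region, and so did the one at the 5' end of kin-14, with 55.1 in replicate 1, 95.0 in the pool and a replicate 2 region of 43.2 at 59 bp. At osm-11, a secreted factor of the Notch pathway, the member had 35.5 in replicate 1 and 59.3 in the pool, with a replicate 2 region of 44.0 at 61 bp. The regions of mnk-1 (chrII:10548735-10548912) and kin-14 (chrI:7079847-7080086) were narrower than the usual 340 bp. Among the highest 20, so were those of gln-3, acs-2 and an intergenic place on chromosome I. Whether such narrow regions would overlap replicate 2 at the usual width was not tested.

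Other members of the highest 20 had no strong replicate 2 region near them. The region beside col-42, a cuticle collagen gene, had 57.7 in replicate 1 and 64.7 in the pool, and the nearest replicate 2 region had 4.52 at 937 bp. It sits in the telomere-like repeat printed above, and 86.1% of its 31-base words occurred once in the genome. The intergenic region on chromosome IV had 46.6 in replicate 1 and 48.8 in the pool, with a replicate 2 region of 6.98 at 1512 bp. It lies between the piRNA genes 21ur-10890 and 21ur-8889, which encode small RNAs of the germline. At the 5' end of hrpu-2, which encodes a homologue of the RNA-binding protein hnRNP U, the member had 41.2 in replicate 1 and 46.4 in the pool, with 4.83 at 1221 bp in replicate 2. The E2F-like gene efl-1 carried 36.6 at its 5' end in replicate 1 and 34.1 in the pool, and replicate 2 had 3.35 at 695 bp. The start of rps-15, a protein of the small ribosomal subunit, had 38.0 in replicate 1 and 61.4 in the pool, and replicate 2 had 7.90 at 873 bp.

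Of the rest of the highest 20, 4 lay at genes of metabolic enzymes. An intron of gln-3, a glutamine synthetase gene, had 74.1 in replicate 1 and 73.0 in the pool, with a replicate 2 region of 26.9 at 175 bp. An intron of ppat-1, whose enzyme opens purine synthesis, had 57.6 in replicate 1 and 54.4 in the pool, with 4.02 at 303 bp in replicate 2; the summit lies within 500 bp of the snoRNA gene T04A8.17 inside that intron. The 5' end of acs-2, an acyl-CoA synthetase of fatty acid breakdown, had 41.5 in replicate 1 and 43.8 in the pool, with 6.33 at 158 bp in replicate 2. A coding exon of tps-2, a trehalose synthesis gene, had 34.5 in replicate 1 and 31.9 in the pool, with 13.4 at 158 bp in replicate 2. Of the kinase genes, mak-1 had 46.2 at its 5' end in replicate 1 and 48.5 in the pool, with 22.8 at 45 bp. Over these 20 members the replicate 1 signal ran down to 34.0, at pas-6, a proteasome subunit gene.

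**Figure D1:**
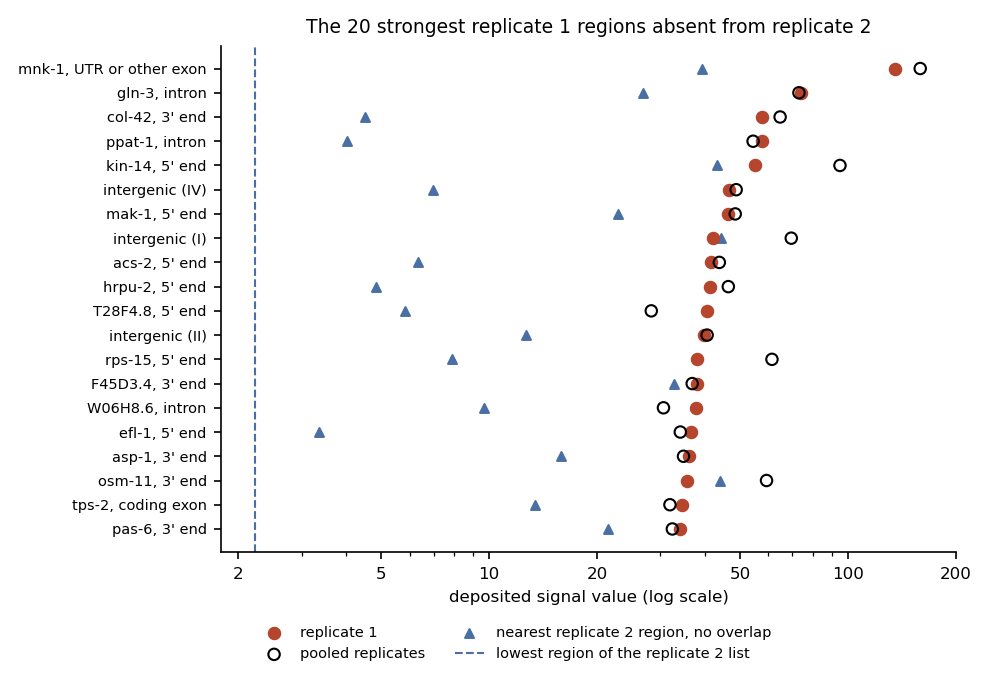
Deposited signal (log axis) of the 20 highest members, from mnk-1 at the top to pas-6. Filled circles are replicate 1, open circles the pooled list, triangles the nearest replicate 2 region, which never overlaps the member, and the dashed line the lowest replicate 2 region, 2.22; for 2 members, osm-11 and an intergenic region on chromosome I, the replicate 2 neighbour had the higher signal.

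Most members were far weaker than these. Their replicate 1 signal had a median of 8.26, quartiles of 6.94 and 10.8, and a range of 6.06 to 135, and only 135 exceeded 20. Their ranks in replicate 1 ran from 24 to 16096 with a median of 10458. Just inside the limit of 5000 the signals were 6.0624, 6.0622 and 6.0612, and just outside it 6.0610, 6.0601 and 6.0601, so the limit falls within a continuous run of values. The 11096 replicate 1 regions of the same rank span that did overlap replicate 2, called shared regions from here on, had a median of 10.8. As a mirror set, the same rule was applied with the replicates exchanged. It gave the 5000 highest replicate 2 regions absent from replicate 1, with signals of 4.43 to 73.3 (median 6.18) and ranks of 20 to 15452, out of 13202 absent ones.

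Absence was rare among the strongest regions and common among weak ones in both directions. Of the first 1000 regions, 41 of replicate 1 were absent from replicate 2, and 100 of replicate 2 were absent from replicate 1. In bins of 2000 ranks the absent share climbed from 6.8% to 61.9% down the replicate 1 list, and from 12% to 63.6% down the replicate 2 list. The 2 curves ran close together, and the rule therefore collects members mostly from the middle of the replicate 1 list.

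**Figure D2:**
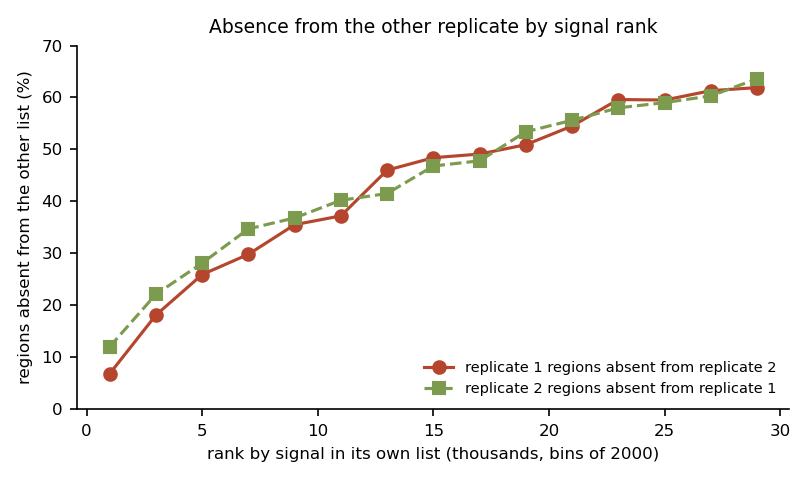
Share of regions absent from the other replicate (vertical axis, percent) by rank in their own list (horizontal axis, in units of 1000, bins of 2000). Circles are replicate 1 and squares replicate 2; they climb from 6.8% and 12% among the strongest 2000 to 61.9% and 63.6% among the weakest.

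Many members bordered a replicate 2 region without touching it. The gap to the nearest one had a median of 390 bp in members and 720 bp in the mirror set. It was at most 100 bp for 925 members (18.5%), against 776 mirror regions (15.5%). It reached 500 bp or more for 2205 members (44.1%) and 2822 mirror regions (56.4%), and 5000 bp or more for 315 members (6.3%) and 919 mirror regions (18.4%). Isolated regions were thus less common among members than in the mirror set. Among themselves, 4020 members had no other member within 500 bp, and 980 stood in 456 runs, the longest of 5. Runs were not counted in the other sets, so whether members cluster more or less than those was not tested.

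Among members 500 bp or more from replicate 2, signal was 7.90 at the median and 57.7 at most. The most isolated of the 10 highest was the 5' end of tag-281, with 29.9 in replicate 1, no region in the pooled list and the nearest replicate 2 region, of 3.51, at 30389 bp. The 5' end of ccz-1, which shares its start region with tag-65, had 29.1 in replicate 1 and 29.8 in the pool, and replicate 2 had 2.78 at 1377 bp. The ATP synthase gene atp-2 had 27.2 at its 5' end in replicate 1 and 28.1 in the pool, with a replicate 2 region of 19.1 at 713 bp. Isolation by distance therefore did not mean an empty neighbourhood at every gene: atp-2 itself carried 3 replicate 2 regions, the strongest of 22.7.

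The pooled list, called on the reads of both replicates together, held most members. It overlapped 4340 of them (86.8%), against 98.4% of shared regions, 65.2% of the mirror set and 81.2% of all 30000 replicate 1 regions. The pool holds the replicate 1 reads by which members were chosen, so presence in it is not independent of the rule. Members in the pooled list had median signals of 9.70 in the pool and 8.50 in replicate 1, and the 660 members missing from it had a replicate 1 median of 7.13. The consensus list, which the study derived from both replicate lists and the pool, held 18 members (0.36%), the same number of mirror regions, and 1525 shared regions (13.7%). Of all replicate 1 regions it held 5.47%. Of those 18 members 15 are among the highest 20, and the others lie in a coding exon of mnk-1 (25.7 in replicate 1), a coding exon of icl-1, the glyoxylate cycle gene (19.4), and an intergenic place on chromosome II (8.74). At icl-1 the replicate 2 region stood 46 bp away with 62.7, and the overlapping consensus region had 54.1. The intergenic member of 8.74 had a consensus value of 40.5, the same as the neighbouring member of the highest 20 with 39.7.

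Members lay in coding exons more often than shared regions and the whole replicate 1 list did, while their share at 5' ends was that of the whole list. A summit within 500 bp of a protein-coding 5' end was found for 1291 members (25.8%, 24.6 to 27.1), 32.5% of shared regions (31.7 to 33.4) and 21.1% of the mirror set (20 to 22.3), against 26.3% of all 30000 replicate 1 regions (25.8 to 26.8). Coding exons held 1014 members (20.3%, 19.2 to 21.4), 13.4% of shared regions (12.7 to 14.0) and 14.3% of the mirror set (13.4 to 15.3), against 16.4% of all replicate 1 regions (16 to 16.9). Introns held 23.8% of members, 20.7% of shared regions, 26.4% of the mirror set and 25.5% of all replicate 1 regions. Counting only summits in coding exons and introns, the coding exon share was 46.0% in members, 39.2% in shared regions, 35.2% in the mirror set and 39.2% in the whole replicate 1 list.

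In the remaining places members and shared regions differed by fewer percentage points, while the mirror set had more intergenic summits. Summits near 3' ends were 14.3% of members, 16.3% of shared regions and 15.9% of the mirror set, and intergenic summits 13.7%, 14.0% and 19.6% in the same order. Non-coding RNA genes outside coding genes held 0.7%, 1.35% and 1.42%. The whole replicate 1 list had 14.5% near 3' ends, 14.7% in intergenic sequence and 1% in non-coding RNA genes. Member signal differed little between these places, with medians of 8.79 at 5' ends, 8.48 at 3' ends, 8.10 in coding exons, 7.95 in introns and 7.98 in intergenic sequence. Since members ranked lower than shared regions, ranks over 10000 were also set side by side, where the median signals were 7.01 in 2679 members and 7.21 in 3417 shared regions. There coding exons held 21.2% of members and 15.7% of shared regions, and 5' ends 22.6% of members and 27.0% of shared regions.

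**Figure D3:**
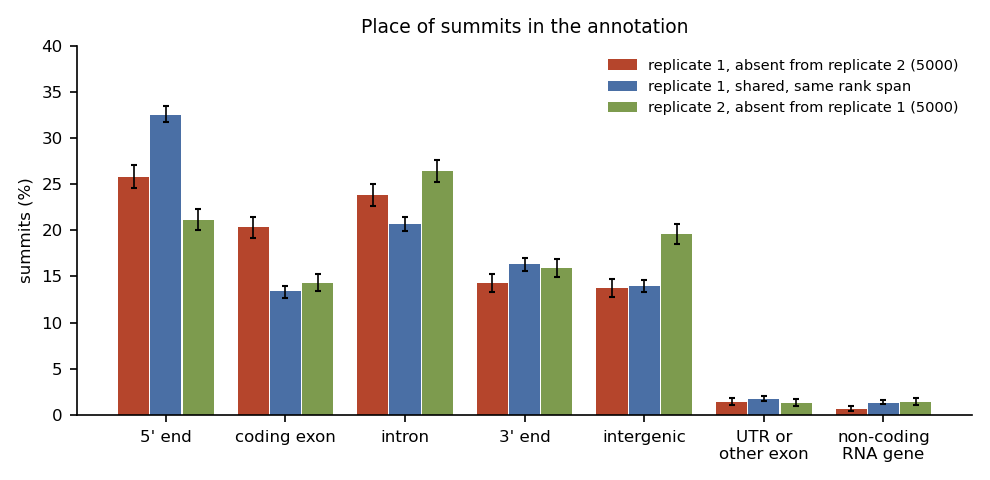
Share of summits (vertical axis, percent) in 7 kinds of place for the 5000 members, the 11096 shared regions and the 5000 mirror regions; bars carry exact 95% binomial intervals. Members stand lower than shared regions at 5' ends (25.8% and 32.5%) and above both other sets in coding exons (20.3%, 13.4% and 14.3%).

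At 5' ends the position of members relative to the start differed by distance to replicate 2 and by rank, with overlapping intervals in both. Members ranked up to 10000 had a median 6 bp downstream and 49.2% upstream (45.4 to 53), and those ranked over 10000 had 53 bp and 42.4% (38.4 to 46.5). Members under 500 bp from a replicate 2 region had a median position 58 bp downstream of the annotated start, with 43% upstream of it (39.3 to 46.8). Members 500 bp or more away had a median 2 bp downstream and 49.5% upstream (45.4 to 53.6), close to the 4 bp and 49.3% of the whole replicate 1 list. All members together stood at 37 bp downstream with 46.0% upstream (43.3 to 48.8), against a median 21 bp upstream and 52.9% upstream (51.3 to 54.6) in shared regions. Inside genes of 2000 bp or more, the median summit lay at 44.4% of the gene's length from the 5' end in members, 43.8% in shared regions and 51.1% in the mirror set. Along the gene, members were thus spread much as shared regions were.

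By chromosome, members followed the shared regions more closely than the mirror set did. Chromosome X held 12.8% of members (11.9 to 13.8), 12.6% of shared regions (12.0 to 13.2) and 19.0% of the mirror set (17.9 to 20.1). Chromosome III held 19.3% of members, 20% of shared regions and 13.7% of the mirror set. The largest departures of members from shared regions were on chromosome I, with 18.5% of members and 16.8% of shared regions, and on chromosome II, with 15.8% and 17.4%.

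Base composition and letter strings differed modestly. Median GC content of the 300-base windows was 36.7% in members, 37.7% in shared regions, 37.0% in the mirror set and 36.7% in the whole replicate 1 list. Under 90% unique words were found in 4.8% of members, 2.9% of shared regions, 3.3% of the mirror set and 4.46% of the whole list, so in both measures members lay close to the list they came from. GAGAGA was in 20.4% of member windows (19.3 to 21.5), 26.9% of shared windows (26.0 to 27.7), 23.0% of mirror windows and 21.8% of all 30000 replicate 1 windows. TTTTCAG was in 28.9% of member windows, 26.0% of shared, 24.7% of mirror and 28.2% of all replicate 1 windows. For CACGTG the shares were 6.84%, 7.78%, 5.22% and 6.64% in the same order, for TATAAA 26.5%, 26.2%, 27.6% and 27.4%, and for AATAAA 48.9%, 49.4%, 49.5% and 50.1%. TTAGGC at any copy number was in 5.96%, 5.81%, 6.56% and 6.33%, and TTTCCCGC in 1.72%, 1.55%, 1.14% and 1.52%. Member windows thus stood apart from shared windows mainly by fewer GAGAGA matches, and lay close to the whole replicate 1 list for every string. Part of that gap went with rank. At ranks over 10000 GAGAGA was in 18.6% of member windows (17.1 to 20.1) and 22.1% of shared windows (20.7 to 23.5), a narrower gap.

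A gene was said to carry a region whose summit fell inside it or up to 500 bp before its start. A region in the windows of neighbouring genes was counted for each of them. The highest members named for unc-40 (with npp-7), dnj-19 (nhr-47), aldo-2 (mig-21), rpb-7 (Y54E10BR.2), atp-2 (C34E10.10 and C34E10.12) and rps-15 (F36A2.9) were among such regions. Of 19973 protein-coding genes, 3121 carried a member (15.6%), 4836 a shared region (24.2%) and 2602 a mirror region (13.0%). Of the genes with a member, 1645 also carried a shared region (52.7%) and 776 a mirror region (24.9% of these genes, and 29.8% of the genes with a mirror region). In 597 genes with a member, 2.99% of all protein-coding genes, no replicate 2 region of any rank met the window. Their median length was 2252 bp, against 3372 bp for all genes with a member and 2027 bp for all protein-coding genes. Among them the highest were T28F4.8 with 40.5 in replicate 1 and 28.3 in the pool, rps-15, efl-1 and tag-281, all at 5' ends. Also among them was eelo-1, whose start region, shared with Y67D2.2, had 26.4 in replicate 1 and 28.7 in the pool, with the nearest replicate 2 region 13346 bp away.

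Long genes carried the most members. In all, 2308 genes had 1 member, 556 had 2 and 257 had 3 or more, and the median gene length of the last group was 8634 bp, against 2027 bp for all protein-coding genes. The 279 genes with 3 or more mirror regions had a median of 7992 bp, so this length was not particular to members. The spectraplakin gene vab-10, whose protein links the cytoskeleton to attachments of the epidermis, is 57568 bp long and carried 12 members of 6.71 to 13.5, of which 6 were in coding exons and 6 in introns. Besides those it had 10 weaker replicate 1 regions that were absent from replicate 2 but below the limit of 5000, 3 replicate 1 regions of any rank that overlapped replicate 2, and 10 replicate 2 regions of at most 8.66. In let-805, which encodes myotactin, a protein of the epidermis that keeps it fastened to muscle, 11 members of 6.48 to 12.2 lay between 9306 and 21232 bp from the 5' end. Of these, 9 were in coding exons, and the gene carried 17 replicate 1 regions against 3 replicate 2 regions. The let-805 exon printed above is its strongest member, 3894 bp from the nearest replicate 2 region.

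Where a long gene carried many members it did not always lack replicate 2 regions. The AMPK subunit gene aakg-1 had 10 members, with a median of 8.03, among 32 replicate 1 regions, and 22 replicate 2 regions of at most 8.67. The CREB gene crh-1 had 8 members among 31 replicate 1 regions, with 24 replicate 2 regions of at most 12.4. The calcium pump gene mca-3 had 8 members among 31, with 17 replicate 2 regions of at most 8.38. In aakg-1 and crh-1 members and regions found in both replicates each ran over most of the gene. In mca-3, which is 29993 bp long, members ran from 6747 to 24354 bp from the 5' end, and replicate 1 regions of any rank that overlapped replicate 2 from -281 bp (before the start) to 21396 bp, so that 2 members lay beyond all of these. The remaining genes of the first 10 had 7 members each: the autophagy gene atg-2, the chaperonin subunit gene cct-8, where all 7 were intronic, the protein kinase A gene kin-1, the polarity gene pac-1, and the reticulon gene ret-1, whose strongest member, at a 5' end, reached 32.1 in replicate 1 and 27.5 in the pool.

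**Figure D4:**
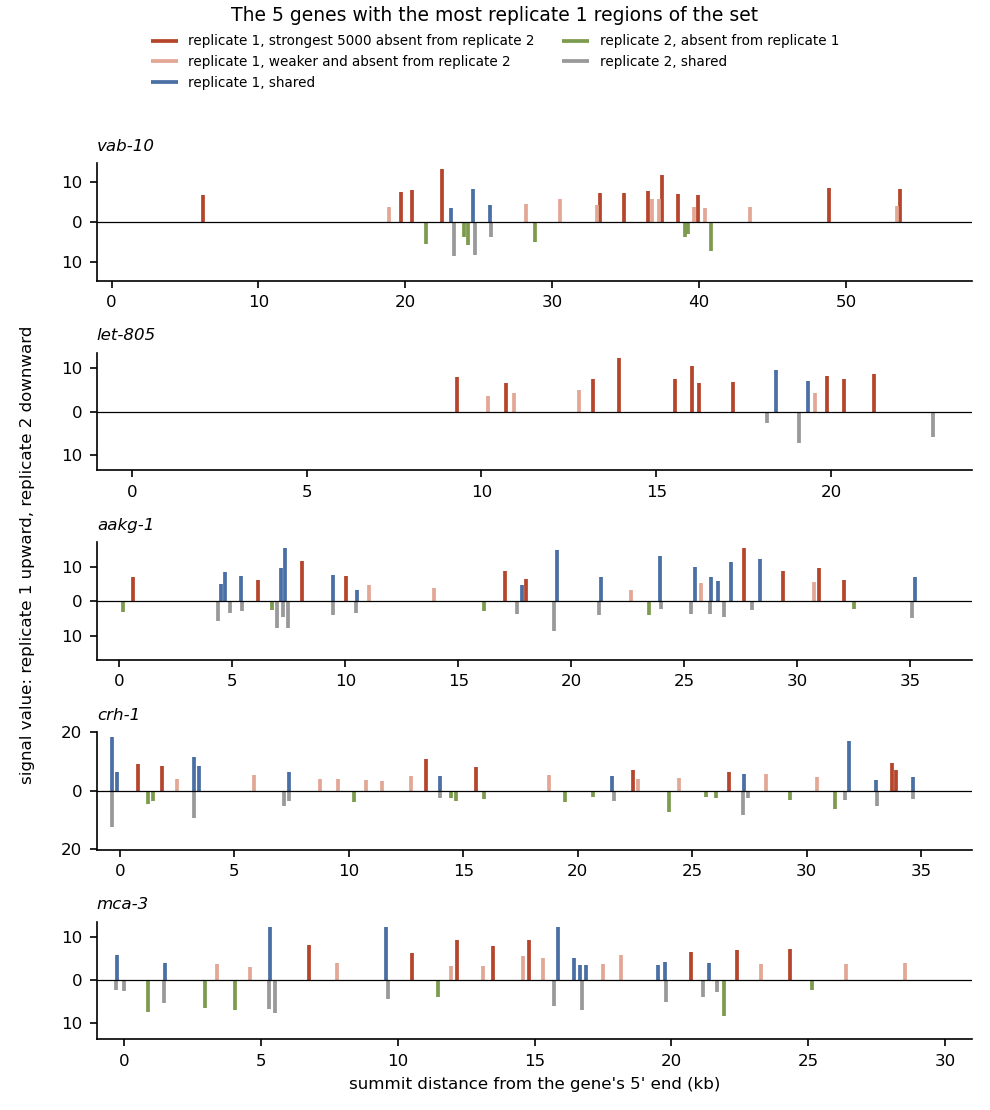
Signal of every listed region along the 5 genes with the most members, by distance of its summit from the 5' end in kb; replicate 1 is drawn upward and replicate 2 downward, on the scale of each library. In let-805 the 11 members face only 3 replicate 2 regions, while aakg-1, crh-1 and mca-3 also hold 11 to 17 replicate 1 regions found in both replicates.

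Genes of protein synthesis carried members more often than mirror regions, and most of these lists carried shared regions more often still. Of 44 translation factor genes 24 carried a member (54.5%, 38.8 to 69.6) and 9 a mirror region (20.5%, 9.8 to 35.3), beside 15.6% and 13.0% of all protein-coding genes; 56.8% carried a shared region, beside 24.2% of all genes. The highest were eif-3.E, a subunit of initiation factor 3, with 16.7 at its 5' end in replicate 1 and no pooled region, and ife-3, a cap-binding protein, with 15.1 in replicate 1 and 8.14 in the pool. Aminoacyl-tRNA synthetase genes, whose enzymes charge tRNAs, carried members in 16 of 31 cases (51.6%, 33.1 to 69.8) mirror regions in 4 (12.9%, 3.63 to 29.8) and shared regions in 48.4%, with iars-2 at 14.9 in replicate 1. Cytosolic ribosomal protein genes carried members in 21 of 83 (25.3%) and mirror regions in 5 (6.02%), while 68 of the 83 (81.9%) had a shared region. Besides rps-15, rpl-18 had 21.9 at its 5' end in replicate 1 and 23.3 in the pool, with a replicate 2 region of 2.96 at 669 bp. Mitochondrial ribosomal protein genes had members in 16 of 70 (22.9%), mirror regions in 5 (7.14%) and shared regions in 60%, with mrpl-53 at 23.6 in replicate 1.

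Other housekeeping lists likewise had more genes with a member than with a mirror region, and more again with a shared region. Shared regions were carried by 87.9% of proteasome genes, 84% of central carbon metabolism genes, 69.4% of splicing and mRNA export genes, 64.8% of respiratory chain genes, 64.5% of chaperone genes and 59.4% of polymerase II genes, so that a high share was not particular to members. Proteasome genes carried members in 17 of 33 (51.5%, 33.5 to 69.2) and mirror regions in 7 (21.2%, 8.98 to 38.9); the ATPase subunit genes rpt-2 and rpt-6 had 19.6 and 16.6 in replicate 1. For central carbon metabolism the counts were 25 of 50 (50%) and 15 of 50 (30%), led by the fructose bisphosphatase gene fbp-1 with 29.7 in replicate 1, against a replicate 2 region of 9.27 at 191 bp, and the aldolase gene aldo-2 with 22.9. Splicing and mRNA export genes had members in 31 of 72 (43.1%, 31.4 to 55.3) and mirror regions in 11 (15.3%, 7.88 to 25.7). Among them hrpk-1, an hnRNP K homologue, carried 4 members of up to 14.8, and a single replicate 2 region of 2.88. Chaperone genes had members in 26 of 62 (41.9%) and mirror regions in 10 (16.1%), with 3 members at dnj-19, a DnaJ-type co-chaperone gene, of up to 24.4. At hsp-110 the member had 21.7 in replicate 1, and replicate 2 regions in the gene's window reached 30.4. Respiratory chain and ATP synthase genes had members in 25 of 71 (35.2%, 24.2 to 47.5) and mirror regions in 6 (8.45%, 3.16 to 17.5), led by the cytochrome c gene cyc-2.1 with 27.3 in replicate 1, 29.1 in the pool and 11.7 at 190 bp in replicate 2. Genes of polymerase II, Mediator and initiation had members in 22 of 64 (34.4%) and mirror regions in 10 (15.6%). In this list rpb-7, a polymerase II subunit gene, had 23.2 at its 5' end in replicate 1 and 22.7 in the pool, with the nearest replicate 2 region 10097 bp away.

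Many members rank low, so the ranks over 10000 were also read apart for these lists. There 9.42% of all protein-coding genes carried a member and 10.8% a shared region. Translation factors had 40.9% with a member and 25% with a shared region, and aminoacyl-tRNA synthetases 35.5% and 19.4%. For splicing and mRNA export the shares were 29.2% and 27.8%, and for the proteasome 27.3% and 27.3%. The member share was the lower one for chaperones (19.4% and 35.5%), central carbon metabolism (30% and 42%), polymerase II, Mediator and initiation (21.9% and 23.4%), the respiratory chain (19.7% and 21.1%), mitochondrial ribosomal proteins (10% and 14.3%) and cytosolic ribosomal proteins (7.23% and 12%). At these ranks the member share of cytosolic ribosomal protein genes was thus also below that of all protein-coding genes, while their shared share was above it.

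Some of these counts rested on members that border a replicate 2 region. When absence was taken to mean no replicate 2 region within 500 bp, and the 5000 highest such regions were used, 2907 of the 19973 protein-coding genes carried one. Among them were 2 of 33 proteasome genes and 6 of 83 cytosolic ribosomal protein genes, both lower shares than that of all genes. Respiratory chain genes stood at 12 of 71, chaperone genes at 16 of 62 and central carbon metabolism genes at 14 of 50, against 17 of 44 for translation factors and 13 of 31 for aminoacyl-tRNA synthetases. No proteasome gene with a member lacked a replicate 2 region in its window.

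Regulators of growth and metabolism also carried members, and most of the lists below carried shared regions more often. Shared regions were in 59.4% of insulin signalling and nutrient response genes, 81% of V-ATPase genes, 43.5% of cytoskeleton genes and 14.6% of homeobox genes. Nuclear hormone receptor genes had them in 23.1%, below their member share. The member share of homeobox genes was below the 15.6% of all protein-coding genes. Of 32 genes of insulin signalling and nutrient response 14 had a member (43.8%) and 7 a mirror region (21.9%). The leucine zipper genes mxl-3 and mml-1, of the Myc and Mondo network, had 25.8 and 18.7 in replicate 1. Both members bordered replicate 2 regions, of 17.5 at 82 bp for mxl-3 and of 14 at 43 bp for mml-1. Nuclear hormone receptor genes, a family much expanded in worms, had members in 74 of 273 (27.1%, 21.9 to 32.8) and mirror regions in 46 (16.8%, 12.6 to 21.8). Their highest, nhr-88, had 28.6 in replicate 1 and 26.8 in the pool within the TTAGGC-rich intron named above, with 4.96 at 66 bp in replicate 2. The nhr-17 member had 24.4 in replicate 1, with 12.6 at 111 bp in replicate 2. V-ATPase genes had members in 5 of 21 (23.8%) and mirror regions in 4 (19.0%), and homeobox genes in 13 of 103 (12.6%) and 15 (14.6%). Kinesin, dynein and cytoskeleton genes had members in 25 of 69 (36.2%) and mirror regions in 21 (30.4%), with intervals that overlap widely. This list also holds vab-10 and let-805, and 5 of its members were in unc-73, the Trio-type exchange factor gene of axon guidance.

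Genes of the cuticle and its epidermis went the other way, with more genes carrying a mirror region than a member. Of all protein-coding genes 15.6% carried a member and 13.0% a mirror region. Members were few beside that in the collagen list and in the cuticlin, apical matrix and astacin list. The member intervals of the hedgehog- and patched-related list and of the epidermis regulators held the 15.6%. Shared regions were also few in cuticle collagen genes (6.21%) and in cuticlin, apical matrix and astacin genes (4.3%), beside 24.2% of all protein-coding genes. The low share was thus not particular to members in these lists. Hedgehog- and patched-related genes had shared regions in 19.8%, and regulators of the epidermis in 64.3%. Cuticle collagen genes carried members in 10 of 177 (5.65%, 2.74 to 10.1) and mirror regions in 49 (27.7%, 21.2 to 34.9). The highest by this count were col-98 with 15.3 in replicate 1 and col-72 with 14.1, both at 5' ends without a replicate 2 region in the gene; only 62.6% of the words in the col-72 region were unique. The col-42 region described first falls outside this count because it lies beyond the 3' end of the gene. Cuticlin, apical matrix and astacin genes had members in 2 of 93 (2.15%, 0.262 to 7.55) and mirror regions in 26 (28.0%, 19.1 to 38.2). Those 2 were nas-39, with 7.08 in replicate 1, and cutl-5, with 6.40. Hedgehog- and patched-related genes, which act in cuticle formation and moulting, had members in 9 of 86 (10.5%, 4.9 to 18.9) and mirror regions in 29 (33.7%, 23.9 to 44.7). Of 14 regulators of the epidermis 2 had a member (14.3%, 1.78 to 42.8), namely elt-6 at 7.59 and myrf-2 at 7.19 in replicate 1, and 12 had a mirror region (85.7%, 57.2 to 98.2).

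Tissue lists showed smaller or opposite leanings, beside 15.6% of all protein-coding genes with a member and 13.0% with a mirror region. Germline and intestinal genes stood close to that member share. Each list below carried shared regions more often than members, beside 24.2% of all genes. The shared shares were 48.4% for muscle, 34.6% for synaptic, 21.4% for adhesion and 15.5% for ion channel genes. They were 8.33% for neuropeptide, 25.5% for intestinal and 22.8% for germline genes. Muscle structure genes had members in 13 of 62 (21.0%) and mirror regions in 21 (33.9%), with the actin gene act-3 at 18.8 in replicate 1, in a region whose words were all unique. Synaptic and neurotransmitter genes had 15 of 52 (28.8%) and 20 (38.5%), adhesion, guidance and basement membrane genes 16 of 84 (19.0%) and 23 (27.4%), and ion channel genes 21 of 232 (9.05%) and 23 (9.91%). In the adhesion list the netrin receptor gene unc-40 had 20.4 at its 5' end in replicate 1 and 16.0 in the pool, with 7.88 at 45 bp in replicate 2. Neuropeptide and insulin genes had members in 8 of 144 (5.56%) and mirror regions in 24 (16.7%), and intestinal genes 20 of 149 (13.4%) and 24 (16.1%). Germline and P granule genes had members in 9 of 57 (15.8%) and mirror regions in 5 (8.77%), with 16.0 in replicate 1 beside the 3' end of pie-1 and 10.7 at the 5' end of gld-1.

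Large multigene families carried few of either kind, beside 15.6% and 13.0% of all protein-coding genes. Shared regions were also few in chemoreceptor (2.06%), F-box (4.97%) and C-type lectin genes (2.92%), beside 24.2% of all genes. A low share was thus not particular to members there. Histone genes carried shared regions in 19%. Chemoreceptor genes had members in 10 of 1310 (0.763%) and mirror regions in 18 (1.37%), F-box genes in 10 of 322 (3.11%) and 6 (1.86%), and C-type lectin genes in 6 of 240 (2.5%) and 6 (2.5%). Histone genes had members in 3 of 84 (3.57%) and a mirror region in 1 (1.19%). The divergent pair his-61 and his-62 shared 1 member of 10.4 in replicate 1, where 99.0% of words were unique.

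**Figure D5:**
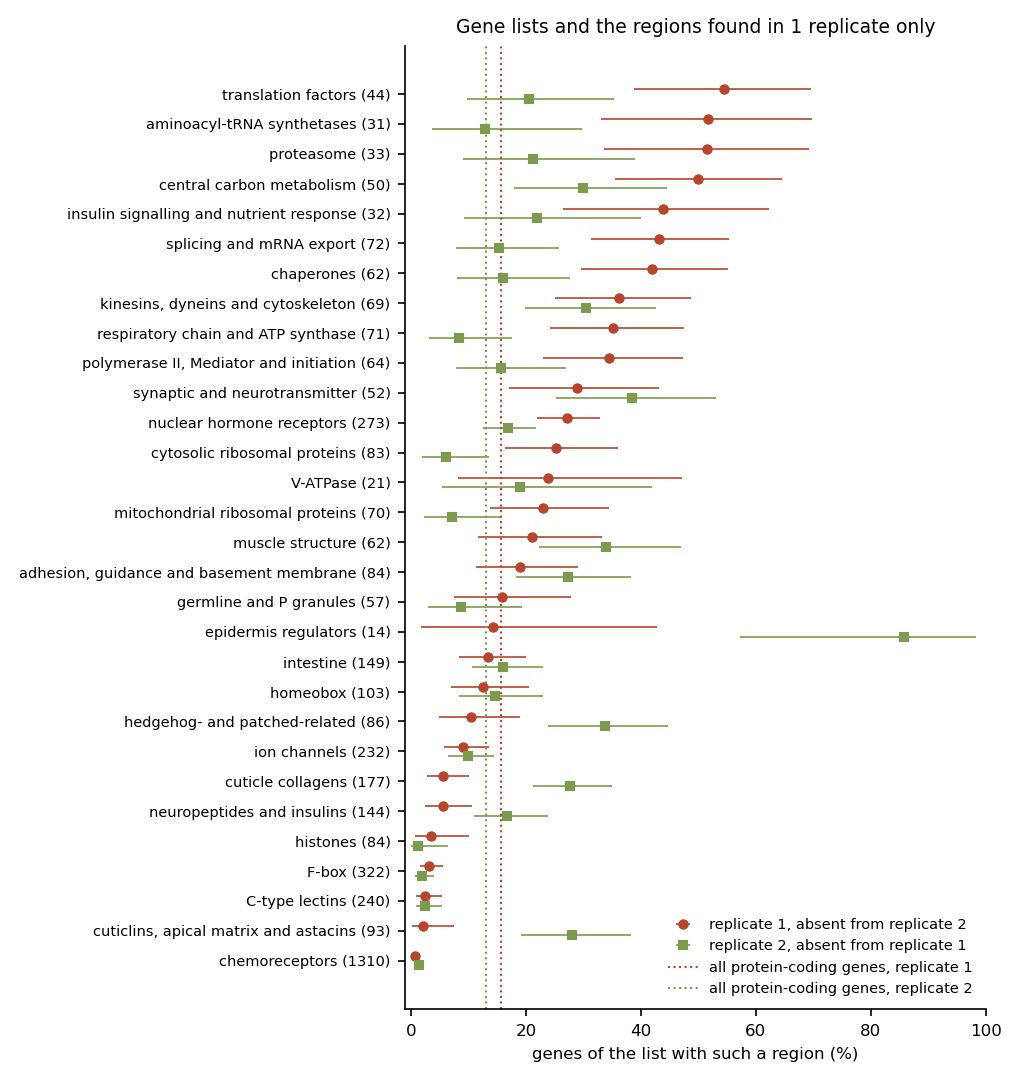
Share of genes in each of 30 lists (number of genes in brackets) with a member (circles) and with a mirror region of replicate 2 (squares), with exact 95% binomial intervals; dotted lines give all protein-coding genes, 15.6% and 13.0%. Translation, proteasome and respiratory lists stand to the right for members, and cuticle and epidermis lists for mirror regions.

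The sets differ in size, with 5000 members and 11096 shared regions, and protein-coding genes also carried fewer members (15.6%) than shared regions (24.2%). The gap was wider for snoRNA, microRNA and snRNA genes, and of about the same proportion for tRNA and piRNA genes. The snoRNA genes, whose products guide modification of ribosomal RNA, had members in 34 of 346 (9.83%, 6.9 to 13.5), shared regions in 113 (32.7%) and mirror regions in 20 (5.78%); T04A8.17, inside ppat-1, was the highest, and C26C6.13 had 27.7 in replicate 1 and 24.9 in the pool. MicroRNA genes had members in 7 of 261 (2.68%, 1.08 to 5.45), shared regions in 57 (21.8%) and mirror regions in 11 (4.21%). The tRNA genes, templates of RNA polymerase III rather than II, had members in 45 of 612 (7.35%), shared regions in 76 (12.4%) and mirror regions in 30 (4.9%). Their highest member, 21.9 in replicate 1, served a pair of tRNA genes in an intron of rsa-2, and only 62.3% of its words were unique. Of 129 snRNA genes only smy-1 carried a member, of 15.3 in replicate 1, while 21 carried a shared region. For the 15363 piRNA genes the shares were 1.07% with a member, 1.61% with a shared region and 1.38% with a mirror region. None of 20 rRNA genes carried a member (exact interval 0 to 16.8%), and none carried a shared or a mirror region.

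Among longer non-coding genes, lincRNA genes had members in 12 of 194 (6.19%), shared regions in 44 (22.7%) and mirror regions in 11 (5.67%). Antisense RNA genes had members in 11 of 100 (11%), shared regions in 22 (22%) and mirror regions in 7 (7%), and the highest, ZK593.11, shared its region of 19.6 with a coding exon of the pyruvate kinase gene pyk-2. Signal from a gene and an antisense gene over it cannot be told apart in these lists.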

How the data were processed

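AMA-1 was immunoprecipitated from whole L1 larvae in 2 biological replicates of 1 group, and the lists of regions on build ce11 were used, with those on ce10 as an alternative. Per the deposited file headers and labels, each replicate's list came from its alignments and a control, the pooled list from both replicates, and the consensus list from all of these. Neither the peak caller with its version and thresholds nor the number of reads is given in the sources used here. Signal values were used as deposited, without rescaling. The deposited −log10 q-value served only for an alternative ranking. The labels give a library size range of 150 to 350 without a unit.

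Overlap meant at least 1 shared bp, and summits came from the offset in each list. Genes came from Ensembl release 115 on WBcel235, which is the ce11 assembly, and sequence from the RefSeq genome of the same assembly. Summits were placed, in this order, at 5' ends and 3' ends of protein-coding genes (within 500 bp), in coding exons, other exons and introns, in non-coding RNA genes, and elsewhere. The unique share is the percent of 31-base words of a region found once in the nuclear genome, and GC content and letter strings were read in 300 bases around the summit. The 30 gene lists were regular expressions on gene symbols. The members and the lists were chosen with earlier results of these data known, so no list is independent evidence. Named are the 20 highest members, the 3 highest of each kind of place, the 10 genes with the most members, the 2 highest of each list and non-coding class, the highest members in the consensus list and those next to the limit of 5000. Members far from replicate 2, genes without a replicate 2 region and the nhr-88 repeat were named after their values were seen. The rules for overlap, gaps and unique words were tested on simulated data (1800 regions and 1280 planted repeat words, 0 errors). Computations used Python 3.11.15, numpy 2.4.6, pandas 2.3.3, scipy 1.17.1 and matplotlib 3.10.9.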

Additional observations from a re-analysis of the deposited data

How the results depend on the processing

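Absence depends on the 30000-region length of the replicate 2 list and on the 1 bp overlap, and neither list gives a value at a place it does not name. No paired analysis was possible because there is 1 group of 2 replicates and no test. Leaving out a replicate gives no value, since the rule needs both lists. The comparison at ranks over 10000 and the genes without a replicate 2 region were chosen after seeing the data.

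With absence meaning no replicate 2 region within 500 bp, 6666 replicate 1 regions were absent, and of the 5000 highest of them 67.8% were in the pooled list, 11.1% on chromosome X, 23.1% at 5' ends and 6.48% under 90% unique, with a median GC of 35.7%. Among the 2500 highest members the share 500 bp or more from replicate 2 was 39%, the pooled share 92.8%, the 5' end share 29.4% and the median GC 37.3%, and 1818 genes carried them. Over all 12889 absent regions these values were 51.7%, 62.4%, 22.2% and 35.7%, with 6.03% under 90% unique and 5805 genes. At ranks over 10000 the 5' end share was 22.6%. With windows of 250 and 1000 bp the 5' end share was 15.6% and 44.3%, and the coding exon share 25.8% and 12.1%. Ranking by q-value, and keeping only members with at least 90% unique words, changed none of these values beyond their intervals. On ce10 the rule found 12872 absent regions, with 12.9% of members on X. Of 260 values recomputed, 153 stayed within their interval or within 1.5 times, among them 91 of 150 for gene lists.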
